A study of Mus musculus with 30 samples.

Results

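The members described here were the protein-coding genes whose symbol is Rab, a number and at most 2 further letters or digits. The rule found 61 of the 22046 protein-coding genes in the table of 54532 genes. Of these, 59 encode Rab GTPases, and 2 share the spelling only. Rab3ip encodes Rabin8, a GEF, and Rab5if a small membrane protein that is not a GTPase. By the compartment each is best known for, 14 members act between ER and Golgi or within the Golgi, 13 in secretion and at the plasma membrane, 9 at recycling endosomes, 8 at early endosomes and phagosomes, 8 at late endosomes, lysosomes and autophagosomes, 3 at lysosome-related organelles and 4 at cilia or elsewhere. 

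Rab GTPases are small GTP-binding proteins that label the membranes between which vesicles travel. A nucleotide exchange factor (GEF) loads a Rab with GTP on its own membrane, the GTP-bound form recruits effectors such as tethers and motors, and a GTPase-activating protein (GAP) ends the cycle, after which GDI takes the Rab off the membrane. In macrophages and microglia Rabs direct phagosome maturation, receptor recycling, lysosome delivery and the release of cytokines and exosomes.

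Bulk mRNA of cultured or freshly isolated mouse microglia was sequenced in 30 libraries, 3 for each of 10 groups. Every group came from C57/B6 mice with no genetic change stated, and HMGB1, a nuclear protein that acts as an alarm signal outside cells, was given for 4 h before harvest, at a concentration stated for Protocol 3 only. Protocol 1 microglia came from neonates of postnatal day 0 to 3 and were shaken off mixed glial cultures after 10 days with 0.5 ng/ml GM-CSF (1A), 10 days without GM-CSF (1B) or 21 days with 0.5 ng/ml GM-CSF (1C). Each such preparation pooled 5 mice, and replicates were distinct litters. Protocol 2 microglia came from adults of 6 to 8 weeks, with cells of 3 brains pooled, selected by adherence and kept for 7 days in M-CSF and GM-CSF (100 ng/ml each). Protocol 3 microglia came from adults of the same age, were selected with CD11b beads and were stimulated at once, with no days in culture. The untreated counterparts of the HMGB1 groups are called Control. Whether HMGB1 and Control libraries of one replicate number shared a preparation is not stated for any protocol, so p-values measure the spread between these libraries.

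Library totals were 14151983 to 28564757 counts, with a median of 21640100. Levels are given as CPM scaled by edgeR's TMM factors, and a gene was called at a Benjamini-Hochberg adjusted p under 0.05 over all genes tested (edgeR quasi-likelihood test). The 15 microglial markers summed to 3521 to 9222 CPM in every library, but not all were present. Tmem119 was at 0.217 to 2.06 CPM in the libraries of Protocol 1, 3.56 to 5.92 in Protocol 2 and 43.04 to 83.5 in Protocol 3. Siglech was at 0 to 0.271 CPM in Protocol 1, 0.225 to 0.842 in Protocol 2 and 413 to 467 in Protocol 3. Not every microglial marker went this way. With Protocol 3 Controls as the reference, Protocol 1 Controls had 10 of the 15 markers called below it and 2 above. Protocol 2 Controls had 8 below and 5 above. From bulk counts alone, fewer cells of a type and less RNA per cell cannot be told apart. By flow cytometry for CD11b and CD45, the paper reports high purity for every protocol.

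Rab7 and Rab5c were among the 4 most abundant members per length in every group. In CPM per kilobase of gene length, Rab7, the late endosome and lysosome Rab, stood at 199 in Protocol 1A Control, 159 in Protocol 2 Control and 132 in Protocol 3 Control. Rab5c, which works in early endosome fusion, stood at 134, 230.3 and 103 in the same order. Rab1a, a Rab of ER-to-Golgi transport, led in Protocol 3 Control with 137 CPM per kilobase, 11.8% of the sum over all members, against 11.4% for Rab7. At the other end, 6 members (Rab3c, Rab9b, Rab17, Rab25, Rab26 and Rab40b) had at most 107 counts over all 30 libraries and passed the low-count filter in no comparison.

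HMGB1 moved most measured Rab genes in the 3 neonatal protocols and few in the adult ones. In Protocol 1A, 23 members rose and 13 fell of 48 tested, in 1B 23 rose and 11 fell of 45, and in 1C 24 rose and 10 fell of 47. That is 75%, 75.6% and 72.3% of the members tested, beside 61.3%, 61.8% and 60.2% of all genes tested. The share that rose was 47.9%, 51.1% and 51.1%, beside 29.7%, 29.8% and 28.4%. Members leaned upward, with a median log2 fold change of 0.18, 0.30 and 0.29 in 1A, 1B and 1C, against -0.04, -0.02 and -0.04 over all genes. Of 45 members tested in all 3 neonatal protocols, 19 rose in each, or 42.2%, against 22% of the 12719 genes so tested, and 9 fell in each, or 20%, against 24%. One member, Rab19, was called in opposite directions, 10 were called in some protocols in 1 direction, 6 in none, and 16 members were not tested in all 3. The summed CPM of all members was 4990 to 5285 in the HMGB1 libraries of 1A, against 3789 to 3965 in the Control libraries. Summed CPM, here and for the markers below, depends on the TMM factors. In 1A these were 0.893 to 0.909 in HMGB1 libraries and 1.18 to 1.25 in Control libraries. Factors under 1 raise CPM and factors over 1 lower it. Without them, as a plain share of reads, the HMGB1 libraries of 1A did not stand above the Control libraries in this sum. Markers of other cells moved with HMGB1 as well. The 10 neutrophil markers, of which 3 to 5 had no counts in a neonatal group, summed to 96.9 to 121 CPM in HMGB1 libraries of 1A, against 43.1 to 61.1 CPM in Control, to 11.4 to 16.2 CPM in those of 1B, against 2.31 to 4.38 CPM, and to 31.9 to 46.3 CPM in those of 1C, against 13.6 to 29.2 CPM. The 10 endothelial markers summed to 257 to 339 CPM in HMGB1 libraries of 1C, against 109 to 134 CPM in Control, while in 1A and 1B the sums of the 2 groups overlapped. Of the endothelial markers tested, 2 of 4 were higher and 1 lower in 1A, 2 of 5 higher and 1 lower in 1B, and 3 of 5 higher in 1C. Of the 8 astrocyte markers, 3 of 4 tested were higher and 1 lower in 1A, 1 of 8 higher in 1B and 3 of 8 higher in 1C. The 15 microglial markers summed to 4673 to 4947 CPM in HMGB1 libraries of 1A, against 3521 to 4034 CPM in Control. That gap, too, did not hold without the TMM factors. The part of any of these in the responses was not tested.

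**Figure D1:**
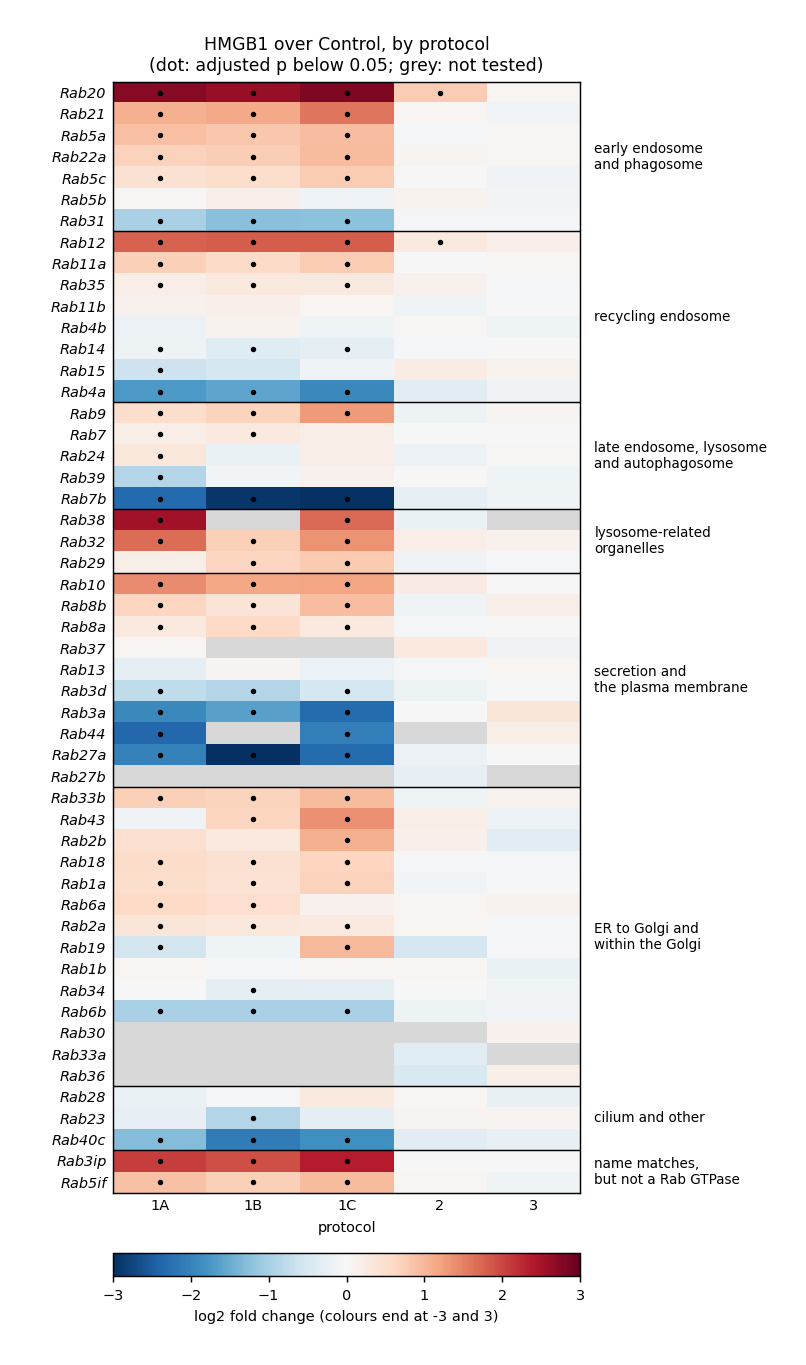
Log2 fold change of HMGB1 over Control for each member tested, in columns by protocol and in rows by compartment, with a dot where the adjusted p was under 0.05 and grey where the member was not tested. The columns of Protocols 1A, 1B and 1C carry 36, 34 and 34 dots, that of Protocol 2 carries 2 and that of Protocol 3 none.

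Of 7 early endosome and phagosome Rabs tested in each neonatal protocol, 5 rose (Rab20, Rab21, Rab5a, Rab22a and Rab5c), 1 fell (Rab31) and 1 was not called (Rab5b). That is 71.4% higher and 14.3% lower in each, beside 28.4% to 29.8% of all genes higher and 31.6% to 32% lower. Rab20, which acts on endosomes and maturing phagosomes, had the largest rise of any member tested in all 3 neonatal protocols. The gene (ENSMUSG00000031504) is annotated at chromosome 8, 11453518 to 11478710, on the minus strand. In Protocol 1A Rab20 had 81.6, 71.2 and 76.9 CPM in the HMGB1 libraries, against 12.1, 11.4 and 10.6 CPM in the Control libraries. In Protocol 1B Rab20 had 99.98, 96.6 and 99.3 CPM in the HMGB1 libraries, against 16.7, 16.8 and 15.3 CPM in the Control libraries. In Protocol 1C Rab20 had 92.01, 114 and 119 CPM in the HMGB1 libraries, against 15.8, 14.6 and 16.1 CPM in the Control libraries. Every HMGB1 library lay above every Control library in each of these protocols. For Rab20 the log2 fold change of HMGB1 over Control was 2.72 ± 0.09 in 1A, 2.6 ± 0.07 in 1B and 2.81 ± 0.11 in 1C (SE, adjusted p = 8.9e-12, 4.82e-10 and 2.72e-09). The exons of Rab20 overlap those of E230013L22Rik on the opposite strand, which had 6.97% as many counts.

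Rab21, a Rab of integrin endocytosis, and Rab5a, which drives early endosome fusion, rose as well. In Protocol 1A Rab21 had 183, 174 and 197 CPM in the HMGB1 libraries, against 87.4, 84.9 and 87.9 CPM in the Control libraries. In Protocol 1B Rab21 had 215, 239 and 227 CPM in the HMGB1 libraries, against 106, 106 and 101.2 CPM in the Control libraries. In Protocol 1C Rab21 had 282, 272 and 313 CPM in the HMGB1 libraries, against 102, 88.1 and 97.1 CPM in the Control libraries. HMGB1 libraries were above Control libraries throughout, and furthest above them in Protocol 1C. For Rab21 the log2 fold change of HMGB1 over Control was 1.07 ± 0.07 in 1A, 1.13 ± 0.06 in 1B and 1.60 ± 0.10 in 1C (SE, adjusted p = 7.54e-09, 9.09e-08 and 5.97e-08). In Protocol 1A Rab5a had 117, 101.04 and 114 CPM in the HMGB1 libraries, against 58.9, 55.6 and 58.8 CPM in the Control libraries. In Protocol 1B Rab5a had 112, 119 and 105 CPM in the HMGB1 libraries, against 71.4, 60.7 and 61.7 CPM in the Control libraries. In Protocol 1C Rab5a had 137, 133 and 144 CPM in the HMGB1 libraries, against 82.1, 70.4 and 64.9 CPM in the Control libraries. The 2 groups did not overlap in any of the 3 protocols. For Rab5a the log2 fold change of HMGB1 over Control was 0.91 ± 0.07 in 1A, 0.80 ± 0.08 in 1B and 0.94 ± 0.10 in 1C (SE, adjusted p = 7.72e-08, 6.14e-06 and 8.25e-06).

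The promoters of these 3 members are shown because each holds the E-box CACGTG, read the same on both strands, which 6 of 62 member promoters (9.68%) and 7.15% of 32851 promoters in the same table hold. The median GC content was 61.7% in member promoters, against 52.7% in all promoters, and its part in these shares was not tested. They come from RefSeq, build GRCm38.p6, 300 bases around the annotated start, on the strand of the gene, with the E-box in capitals. Rab20 lies at chr8:11478591-11478890 (minus strand), Rab21 at chr10:115315542-115315841 (minus) and Rab5a at chr17:53478984-53479283 (plus).
Rab20: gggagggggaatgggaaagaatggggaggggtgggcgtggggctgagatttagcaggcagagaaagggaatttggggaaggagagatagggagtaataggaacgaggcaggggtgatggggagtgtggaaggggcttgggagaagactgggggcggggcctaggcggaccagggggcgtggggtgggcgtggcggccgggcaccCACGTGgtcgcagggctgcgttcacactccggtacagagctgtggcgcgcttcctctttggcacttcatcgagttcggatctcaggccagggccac
Rab21: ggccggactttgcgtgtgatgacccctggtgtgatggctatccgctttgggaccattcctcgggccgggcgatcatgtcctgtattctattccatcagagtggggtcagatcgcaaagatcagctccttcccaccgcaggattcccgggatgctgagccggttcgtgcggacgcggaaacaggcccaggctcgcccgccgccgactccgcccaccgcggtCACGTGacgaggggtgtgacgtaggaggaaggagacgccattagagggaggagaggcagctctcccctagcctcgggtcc
Rab5a: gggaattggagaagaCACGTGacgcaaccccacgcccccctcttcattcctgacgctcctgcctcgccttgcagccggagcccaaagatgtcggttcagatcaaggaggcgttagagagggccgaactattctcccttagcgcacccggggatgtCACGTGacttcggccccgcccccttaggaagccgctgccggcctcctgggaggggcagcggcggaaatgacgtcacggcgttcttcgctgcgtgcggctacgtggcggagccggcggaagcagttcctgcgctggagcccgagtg
The E-box starts at position -46 from the annotated start in Rab20, at -30 in Rab21 and at -235 and -95 in Rab5a. Of 17 promoters of members that rose in all 3 neonatal protocols, 3 held it (17.6%), and of 9 promoters of members that fell, 1 did (11.1%). A single NF-kB-like pattern (3 Gs, 2 bases of any kind, 3 Ts and 2 Cs) was searched on both strands. It was in 3 member promoters (4.84%, of Rab9, Rab15 and Rab28) against 1.63% of all promoters. Other forms of the NF-kB site were not searched. A match describes letters in the sequence and no binding.

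Among the other Rabs that rose, Rab12, Rab10 and Rab32 are substrates or partners of the kinase LRRK2. Rab12 sends receptors from recycling endosomes to lysosomes. In Protocol 1A Rab12 had 148, 142 and 141 CPM in the HMGB1 libraries, against 41.3, 37.8 and 45.9 CPM in the Control libraries. In Protocol 1B Rab12 had 226, 206 and 200.1 CPM in the HMGB1 libraries, against 63.9, 55.97 and 59.2 CPM in the Control libraries. In Protocol 1C Rab12 had 207, 208 and 216 CPM in the HMGB1 libraries, against 63.8, 53.3 and 61.6 CPM in the Control libraries. All 9 HMGB1 libraries of the neonatal protocols exceeded all 9 Control libraries. For Rab12 the log2 fold change of HMGB1 over Control was 1.76 ± 0.07 in 1A, 1.83 ± 0.07 in 1B and 1.83 ± 0.09 in 1C (SE, adjusted p = 9.94e-11, 5.43e-09 and 1.53e-08). Rab10 serves delivery to the plasma membrane. In Protocol 1A Rab10 had 391, 337 and 365 CPM in the HMGB1 libraries, against 133, 133 and 136 CPM in the Control libraries. In Protocol 1B Rab10 had 382, 334 and 331 CPM in the HMGB1 libraries, against 167, 152 and 149 CPM in the Control libraries. In Protocol 1C Rab10 had 408, 406 and 382 CPM in the HMGB1 libraries, against 182, 168 and 182 CPM in the Control libraries. Here too the groups stayed apart in each protocol. For Rab10 the log2 fold change of HMGB1 over Control was 1.42 ± 0.07 in 1A, 1.17 ± 0.07 in 1B and 1.17 ± 0.09 in 1C (SE, adjusted p = 6.09e-10, 2.08e-07 and 3.81e-07). Exons of Rab10 overlap Rab10os on the opposite strand, which had 7.85% as many counts.

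Rab32 works on lysosome-related organelles and on the phagosomes of infected cells. In Protocol 1A Rab32 had 313, 306 and 335 CPM in the HMGB1 libraries, against 97.5, 95.3 and 99.96 CPM in the Control libraries. In Protocol 1B Rab32 had 128, 108 and 113 CPM in the HMGB1 libraries, against 76.8, 69.5 and 68.2 CPM in the Control libraries. In Protocol 1C Rab32 had 231, 240.3 and 183 CPM in the HMGB1 libraries, against 92.1, 88.9 and 78.4 CPM in the Control libraries. HMGB1 libraries lay above Control libraries in each protocol, with the smallest gap in 1B. For Rab32 the log2 fold change of HMGB1 over Control was 1.68 ± 0.07 in 1A, 0.71 ± 0.08 in 1B and 1.34 ± 0.12 in 1C (SE, adjusted p = 4.98e-11, 1.44e-05 and 1.38e-06). Within Rab32, Rab38 and Rab29, which share this compartment, Rab32 made up 84.2% of the CPM per kilobase in Protocol 1A HMGB1, against 65.7% in Control. In Protocol 1B the share was 63.3% in HMGB1, against 62.3% in Control.

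The members that are not GTPases also rose. Rab3ip encodes Rabin8, the GEF of Rab8. In Protocol 1A Rab3ip had 24.9, 23.6 and 25.8 CPM in the HMGB1 libraries, against 5.72, 4.55 and 7.01 CPM in the Control libraries. In Protocol 1B Rab3ip had 17.3, 24.5 and 17.8 CPM in the HMGB1 libraries, against 4.95, 5.78 and 5.03 CPM in the Control libraries. In Protocol 1C Rab3ip had 28.7, 31.3 and 30.5 CPM in the HMGB1 libraries, against 6.19, 5.81 and 5.66 CPM in the Control libraries. No HMGB1 library fell within the range of the Control libraries. For Rab3ip the log2 fold change of HMGB1 over Control was 2.08 ± 0.14 in 1A, 1.92 ± 0.16 in 1B and 2.37 ± 0.12 in 1C (SE, adjusted p = 1.29e-08, 2.16e-06 and 1.43e-08). In Protocol 1A Rab5if had 104, 105 and 115 CPM in the HMGB1 libraries, against 51.9, 58.8 and 61.1 CPM in the Control libraries. In Protocol 1B Rab5if had 93.9, 120.03 and 104 CPM in the HMGB1 libraries, against 65.99, 66.99 and 61.96 CPM in the Control libraries. In Protocol 1C Rab5if had 115, 112 and 128 CPM in the HMGB1 libraries, against 62.9, 55.7 and 65.8 CPM in the Control libraries. The gap between groups was smaller for Rab5if than for Rab3ip but present in each protocol. For Rab5if the log2 fold change of HMGB1 over Control was 0.89 ± 0.07 in 1A, 0.71 ± 0.09 in 1B and 0.95 ± 0.09 in 1C (SE, adjusted p = 1.7e-07, 5.18e-05 and 4.19e-06).

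**Figure D2:**
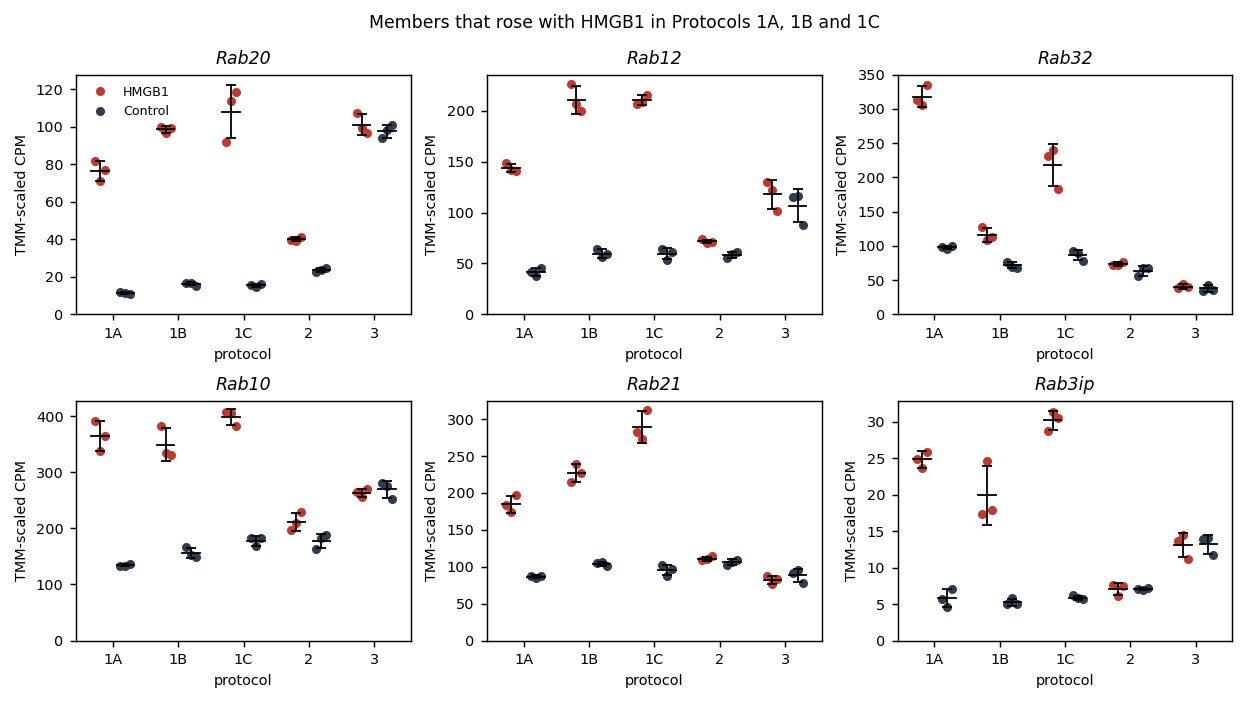
TMM-scaled CPM of 6 members that rose, 1 point per library, with HMGB1 in red and Control in dark blue for each protocol and bars for mean and SD of 3 libraries. In Protocols 1A, 1B and 1C the red points of all 6 members stand above the dark ones, while in Protocol 3 they overlap.

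The other 11 members that rose in all 3 neonatal protocols did so by 0.19 to 1.27 on the log2 scale. They were Rab22a and Rab5c of early endosomes, Rab11a and Rab35 of recycling endosomes, Rab9 of late endosomes, Rab8a and Rab8b of secretion, and Rab1a, Rab2a, Rab18 and Rab33b of ER and Golgi. Rab9, which returns mannose 6-phosphate receptors to the Golgi, had the widest range among them, with log2 fold changes of 0.52 ± 0.09, 0.66 ± 0.11 and 1.27 ± 0.09 (SE) in 1A, 1B and 1C. Of the 11 Golgi and ER members tested in each protocol, 5 rose and 2 fell in 1A, 6 rose and 2 fell in 1B, and 7 rose and 1 fell in 1C. The share called was 63.6%, 72.7% and 72.7%, beside 61.3%, 61.8% and 60.2% of all genes. Exons of Rab2b, called in 1C alone, overlap those of Tox4 on the opposite strand, which had 4650% as many counts, so the counts of Rab2b are uncertain. Rab1b, the close paralog of Rab1a, was called in none of the 3 neonatal protocols, at 0.05, -0.05 and 0.06. Rab1a thus made up 54.7% of the CPM per kilobase of the pair in Protocol 1C HMGB1, against 43.7% in Control.

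Of the members with at least 5 CPM, Rab7b fell most on average over the 3 neonatal protocols. The gene (ENSMUSG00000052688) is annotated at chromosome 1, 131688695 to 131715439, on the plus strand. Rab7b carries cargo between late endosomes and the Golgi, and in mouse macrophages it promotes the lysosomal degradation of TLR4 and TLR9. In Protocol 1A Rab7b had 50.3, 42.1 and 52.6 CPM in the HMGB1 libraries, against 234, 231 and 252 CPM in the Control libraries. In Protocol 1B Rab7b had 68.1, 50.9 and 57.7 CPM in the HMGB1 libraries, against 484, 436 and 415 CPM in the Control libraries. In Protocol 1C Rab7b had 37.4, 34.3 and 41.4 CPM in the HMGB1 libraries, against 305, 264 and 317 CPM in the Control libraries. Control libraries were several times as high as HMGB1 libraries in every protocol. For Rab7b the log2 fold change of HMGB1 over Control was -2.33 ± 0.09 in 1A, -2.91 ± 0.11 in 1B and -2.96 ± 0.11 in 1C (SE, adjusted p = 3.28e-11, 6.64e-09 and 1.5e-09). Its paralog Rab7 had log2 fold changes of 0.20, 0.30 and 0.19, of which those in 1A and 1B were called. Rab7b therefore made up 4.30% of the CPM per kilobase of the pair in 1A HMGB1, against 20.6% in Control. In 1B it made up 5.49% in HMGB1, against 35.01% in Control, and in 1C 3.41% in HMGB1, against 23.9% in Control.

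Rab27a docks secretory lysosomes and exosome-bearing endosomes at the plasma membrane. In Protocol 1A Rab27a had 1.63, 1.65 and 2.34 CPM in the HMGB1 libraries, against 6.80, 5.94 and 9.74 CPM in the Control libraries. In Protocol 1B Rab27a had 0.364, 0.742 and 0.749 CPM in the HMGB1 libraries, against 5.42, 4.91 and 5.84 CPM in the Control libraries. In Protocol 1C Rab27a had 0.623, 1.22 and 0.794 CPM in the HMGB1 libraries, against 4.64, 4.20 and 4.13 CPM in the Control libraries. Counts were low but the groups did not overlap, and every HMGB1 library was under every Control library of its protocol. For Rab27a the log2 fold change of HMGB1 over Control was -2.03 ± 0.24 in 1A, -3.06 ± 0.29 in 1B and -2.30 ± 0.30 in 1C (SE, adjusted p = 5.89e-06, 5.54e-06 and 3.95e-05). Rab40c couples a Rab domain to a ubiquitin ligase through its SOCS box. In Protocol 1A Rab40c had 12.8, 11.04 and 9.71 CPM in the HMGB1 libraries, against 23.9, 26.5 and 31.2 CPM in the Control libraries. In Protocol 1B Rab40c had 12.2, 8.41 and 8.49 CPM in the HMGB1 libraries, against 38.5, 45.1 and 40.4 CPM in the Control libraries. In Protocol 1C Rab40c had 9.30, 6.996 and 8.63 CPM in the HMGB1 libraries, against 28.6, 30.6 and 31.2 CPM in the Control libraries. HMGB1 libraries of Rab40c lay below Control libraries in the 3 protocols. For Rab40c the log2 fold change of HMGB1 over Control was -1.30 ± 0.13 in 1A, -2.11 ± 0.14 in 1B and -1.85 ± 0.13 in 1C (SE, adjusted p = 7.31e-07, 5.06e-07 and 2.49e-07).

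Rab31 carries cargo between Golgi and endosomes and takes part in phagocytosis. In Protocol 1A Rab31 had 91.5, 85.9 and 81.7 CPM in the HMGB1 libraries, against 174, 164 and 159 CPM in the Control libraries. In Protocol 1B Rab31 had 138, 123 and 125 CPM in the HMGB1 libraries, against 334, 302 and 291 CPM in the Control libraries. In Protocol 1C Rab31 had 65.2, 69.4 and 71.2 CPM in the HMGB1 libraries, against 166, 154 and 167 CPM in the Control libraries. Every Control library was above every HMGB1 library of its protocol. For Rab31 the log2 fold change of HMGB1 over Control was -0.96 ± 0.07 in 1A, -1.26 ± 0.07 in 1B and -1.24 ± 0.08 in 1C (SE, adjusted p = 2.77e-08, 9.59e-08 and 1.49e-07). Rab22a, the paralog of Rab31, rose where Rab31 fell. Its share of the CPM per kilobase of the pair was 42.3% in 1A HMGB1, against 18.9% in Control. In 1C it was 53.95% in HMGB1, against 20.5% in Control.

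Rab3d, a Rab of secretory granules, fell by a smaller amount. In Protocol 1A Rab3d had 31.9, 30.3 and 29.99 CPM in the HMGB1 libraries, against 47.8, 50.4 and 56.9 CPM in the Control libraries. In Protocol 1B Rab3d had 23.5, 21.9 and 22.5 CPM in the HMGB1 libraries, against 44.8, 39.7 and 41.8 CPM in the Control libraries. In Protocol 1C Rab3d had 22.9, 22.1 and 23.8 CPM in the HMGB1 libraries, against 36.9, 32.7 and 30.2 CPM in the Control libraries. The groups were apart in each protocol. For Rab3d the log2 fold change of HMGB1 over Control was -0.77 ± 0.08 in 1A, -0.89 ± 0.07 in 1B and -0.53 ± 0.11 in 1C (SE, adjusted p = 1.31e-06, 1.8e-06 and 0.00119). Rab14, of Golgi-to-endosome traffic, fell least. In Protocol 1A Rab14 had 235, 228 and 221 CPM in the HMGB1 libraries, against 246, 243 and 255 CPM in the Control libraries. In Protocol 1B Rab14 had 244, 244 and 234 CPM in the HMGB1 libraries, against 334, 309 and 295 CPM in the Control libraries. In Protocol 1C Rab14 had 225, 215 and 216 CPM in the HMGB1 libraries, against 266, 256 and 267 CPM in the Control libraries. HMGB1 and Control libraries did not overlap, but in 1A they nearly touched. For Rab14 the log2 fold change of HMGB1 over Control was -0.15 ± 0.06 in 1A, -0.37 ± 0.06 in 1B and -0.26 ± 0.08 in 1C (SE, adjusted p = 0.0493, 0.000431 and 0.0174). The call in 1A was lost with DESeq2's size factors (adjusted p = 0.119) and in 5 of 6 fits without 1 library.

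The remaining falls in all 3 neonatal protocols were those of Rab3a, Rab4a and Rab6b, each with under 5 CPM in the higher group of 1A, at log2 fold changes of -2.30 to -0.97. Exons of Rab3a overlap those of Mpv17l2 on the opposite strand, which had 789% as many counts, so the counts of Rab3a are uncertain. Rab4a, of fast recycling, made up 42.7% of the CPM per kilobase of Rab4a and Rab4b in 1A HMGB1, against 69.1% in Control. Rab44 fell by 2.36 in Protocol 1A and by 2.08 in 1C on the log2 scale, and Rab38 rose by 2.51 and 1.69. Both were too low to be tested in 1B, and reached at most 3.73 and 1.33 CPM in any group mean.

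**Figure D3:**
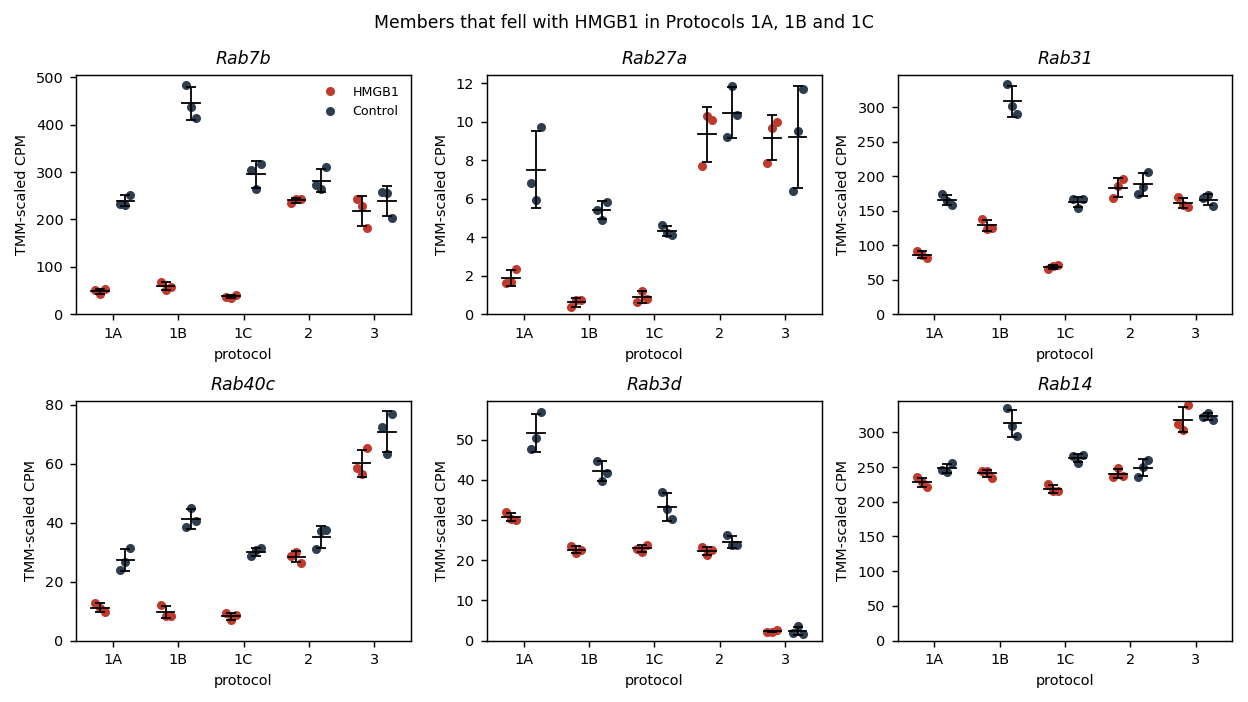
TMM-scaled CPM of 6 members that fell, 1 point per library, with HMGB1 in red and Control in dark blue for each protocol and bars for mean and SD of 3 libraries. Rab7b, Rab27a, Rab31 and Rab40c show red points under the dark ones in Protocols 1A, 1B and 1C, and overlapping points in Protocol 3.

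**Figure D4:**
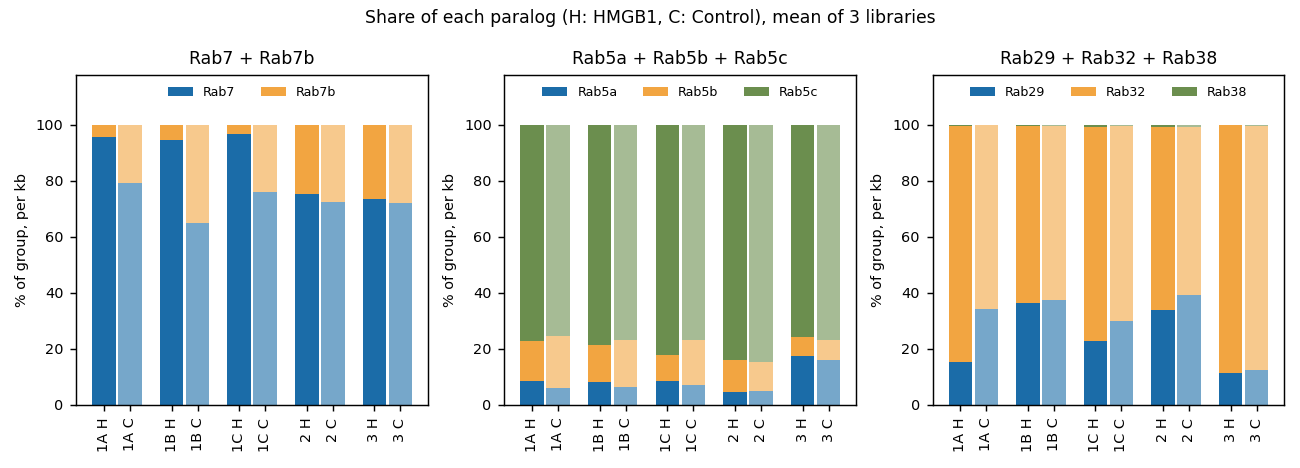
Share of each paralog in the summed CPM per kilobase of its family, in percent, mean of 3 libraries, with HMGB1 (H) left of Control (C) for each protocol. The Rab7b part shrinks to 4.30%, 5.49% and 3.41% in HMGB1 of 1A, 1B and 1C, against 20.6%, 35.01% and 23.9% in Control, and differs little in Protocols 2 and 3.

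In adult microglia cultured with M-CSF and GM-CSF (Protocol 2), 2 of 50 members tested rose and none fell, which is 4% beside 1.49% of all genes (1.21% higher, 0.283% lower). The risers were Rab20 and Rab12. In Protocol 2 Rab20 had 39.6, 39.3 and 41.4 CPM in the HMGB1 libraries, against 22.4, 23.5 and 24.7 CPM in the Control libraries. In Protocol 2 Rab12 had 73.6, 70.02 and 70.9 CPM in the HMGB1 libraries, against 54.9, 59.2 and 61.03 CPM in the Control libraries. For both members the 2 groups did not overlap. The log2 fold change was 0.76 ± 0.07 for Rab20 and 0.29 ± 0.06 for Rab12 (SE, adjusted p = 8.57e-05 and 0.0362). The call of Rab12 was lost without any 1 of the 6 libraries (adjusted p = 0.0845 to 0.15). In Protocol 2 Rab7b had 235, 243 and 243 CPM in the HMGB1 libraries, against 272, 264 and 311 CPM in the Control libraries. Rab7b was thus lower in each HMGB1 library, but was not called (log2 fold change -0.24 ± 0.07, SE, adjusted p = 0.17).

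With the replicate number as a block, 8 of 50 members were called in Protocol 2, 4 higher and 4 lower, which is 16% beside 7.94% of all genes with the block. Besides Rab20 and Rab12, Rab10 (0.25 ± 0.04) and Rab32 (0.21 ± 0.05) were then higher, and Rab7b (-0.23 ± 0.04), Rab40c (-0.31 ± 0.07), Rab19 (-0.48 ± 0.12) and Rab8b (-0.12 ± 0.04) lower, as log2 fold changes with SE. Rab10, Rab32, Rab7b and Rab40c had moved in the same directions in all 3 neonatal protocols, whereas Rab8b had risen in all 3 and Rab19 had fallen in 1A and risen in 1C.

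In freshly isolated adult microglia (Protocol 3), none of 49 members tested was called, beside 0.123% of all genes. edgeR gave 3 members with an unadjusted p under 0.05, and DESeq2's Wald test called 0. In Protocol 3 Rab20 had 107, 99.5 and 96.8 CPM in the HMGB1 libraries, against 94.01, 98.1 and 100.8 CPM in the Control libraries. The Control libraries of Protocol 3 were thus above the HMGB1 libraries of Protocol 1A for Rab20, and the 2 groups of Protocol 3 overlapped. In Protocol 3 Rab7b had 242, 229 and 183 CPM in the HMGB1 libraries, against 259, 255 and 202 CPM in the Control libraries. With the replicate block 2 of 49 members were called in Protocol 3 (4.08%, beside 2.17% of all genes with the block), Rab8b at 0.18 ± 0.04 and Rab40c at -0.22 ± 0.06 (log2 fold change, SE). The part of RNA yield and integrity in the few calls of Protocol 3 was not tested. For freshly isolated adult cells, the paper reports lower RNA yield and integrity scores than for cultured adult cells.

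The responses themselves were compared over all 30 libraries. Against Protocol 1A, 31 of 55 members tested differed in response in Protocol 2 (9 higher, 22 lower) and 31 in Protocol 3 (10 higher, 21 lower), which is 56.4% in each case, beside 33% (16% higher, 17.1% lower) and 33.5% (14.5% higher, 19.1% lower) of all genes. For Rab20 the response was lower than in 1A, with log2 differences of -1.98 ± 0.12 in Protocol 2 and -2.70 ± 0.11 in Protocol 3 (SE). For Rab7b, which fell in 1A, it was less negative, with differences of 2.08 ± 0.16 and 2.18 ± 0.16. All named risers and fallers but Rab14 differed from 1A in both adult protocols.

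Between the neonatal cultures fewer responses differed. In Protocol 1B minus 1A, 4 of 55 members were called (1 higher, 3 lower), or 7.27%, beside 6.9% of all genes (3.7% higher, 3.21% lower). With DESeq2's size factors the split was 2 higher and 3 lower. All genes then had 746 higher and 517 lower, against 672 and 583 in the main fit. Rab32 rose less in 1B, with a difference of -1.0 ± 0.14 (log2, SE, adjusted p = 8.15e-06). Rab40c and Rab7b fell further, with differences of -0.83 ± 0.18 and -0.61 ± 0.16. Rab43, a Golgi Rab, had a difference of 0.72 ± 0.21. In Protocol 1C minus 1A, 10 were called (7 higher, 3 lower), or 18.2%, beside 14% (5.46% higher, 8.53% lower). With DESeq2's size factors 8 members were higher and 2 lower. All genes then had 1215 higher and 1032 lower, against 993 and 1551 in the main fit, so their lean depended on the scaling. With the replicate block the counts were 10 (2 higher, 8 lower) in 1B minus 1A, or 18.2% beside 11.2% of all genes with the block, and 16 (10 higher, 6 lower) in 1C minus 1A, or 29.1% beside 19.5%.

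Rab43 and Rab19 had the largest differences in 1C among members with more than a few counts. In Protocol 1A Rab43 had 11.4, 10.7 and 9.91 CPM in the HMGB1 libraries, against 11.1, 11.6 and 11.2 CPM in the Control libraries. In Protocol 1C Rab43 had 22.9, 24.8 and 32.2 CPM in the HMGB1 libraries, against 7.47, 12.01 and 11.2 CPM in the Control libraries. In 1C every HMGB1 library of Rab43 was above every Control library, while in 1A the groups overlapped. In Protocol 1A Rab19 had 9.43, 11.7 and 11.4 CPM in the HMGB1 libraries, against 15.1, 15.6 and 16.2 CPM in the Control libraries. In Protocol 1C Rab19 had 16.6, 16.8 and 16.5 CPM in the HMGB1 libraries, against 8.43, 7.42 and 9.67 CPM in the Control libraries. Rab19 was thus lower with HMGB1 in 1A and higher with HMGB1 in 1C. The differences of 1C minus 1A were 1.45 ± 0.21 for Rab43 and 1.49 ± 0.26 for Rab19 (log2, SE, adjusted p = 1.27e-05 and 0.000161). Rab39 (0.97 ± 0.31), Rab9 (0.72 ± 0.15), Rab29 (0.57 ± 0.14) and Rab21 (0.51 ± 0.10) were also higher, and Rab7b (-0.66 ± 0.16), Rab40c (-0.58 ± 0.18) and Rab6a (-0.49 ± 0.13) lower. Exons of Rab6a overlap those of Mrpl48 on the opposite strand, which had 22.2% as many counts. Rab3b was called too, on 0 counts in all 3 HMGB1 libraries of 1A and at most 15 counts elsewhere, so no fold is given.

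Untreated microglia differed widely in Rab genes between freshly isolated and cultured cells. In Control libraries, 22 members were higher and 21 lower in Protocol 1 (mean of 1A, 1B and 1C) than in Protocol 3 of 52 tested, or 82.7%, close to the 80.1% of all genes (37.3% higher, 42.9% lower). In Protocol 2 against Protocol 3, 25 were higher and 16 lower, or 78.8%, beside 77.3% of all genes (40.1% higher, 37.2% lower). The members' median log2 fold change was 0.07 in Protocol 1 against 3 and 0.19 in Protocol 2 against 3. The median over all genes tested in Protocol 1 against 3 was -0.12 (log2), and 0.03 when only the libraries compared were fitted. Late endosome and lysosome Rabs were mostly higher in Protocol 1, with 5 higher and 1 lower of 6 tested, while of 8 recycling endosome Rabs 2 were higher and 5 lower. Among these 6, exons of Rab24 overlap those of Prelid1 on the opposite strand, which had 2030% as many counts, so the counts of Rab24 are uncertain. The comparisons of Protocols 1 and 2 with Protocol 3 share the 3 Control libraries of Protocol 3. Protocols 1 and 2 differ from Protocol 3 in the selection of cells as well as in culture. Protocol 1 differs in the age of the mice too, and these cannot be told apart. The paper also reports lower RNA yield and integrity scores for freshly isolated adult cells than for cultured adult cells. The part of RNA yield and integrity in the differences between Controls was not tested. These Control libraries also differed in markers of other cells. The 10 neutrophil markers summed to 2.31 to 64.1 CPM in the Controls of the cultured protocols, against 414 to 860 CPM in Protocol 3 Control, and 9 of the 10 were lower in each cultured protocol. Of 10 endothelial markers, 9 were lower in Protocol 1 over 3 (median log2 fold change -5.85) and 8 in Protocol 2 over 3 (-1.55), with 1 higher in each. Of 8 astrocyte markers, 3 were higher and 2 lower in Protocol 1 over 3, and 6 were higher in Protocol 2 over 3. Of 10 oligodendrocyte markers, 6 were higher and 3 lower in Protocol 1 over 3, and 8 were higher in Protocol 2 over 3. Of 8 fibroblast and mural markers tested, 3 were higher and 3 lower in Protocol 1 over 3, and 6 were higher and 1 lower in Protocol 2 over 3 (median 4.96). The part of any of these in the values below was not tested.

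Rab3d and Rab19 were furthest above Protocol 3 in the cultured Controls. Rab3d had 30.2, 41.8 and 56.9 CPM (lowest, median and highest) in the 9 Control libraries of Protocol 1, 26.2, 23.7 and 23.7 CPM in those of Protocol 2 and 1.94, 3.58 and 1.53 CPM in those of Protocol 3. Rab19 had 5.84, 8.43 and 16.2 CPM (lowest, median and highest) in the 9 Control libraries of Protocol 1, 7.69, 12.7 and 12.2 CPM in those of Protocol 2 and 0.563, 0.580 and 1.15 CPM in those of Protocol 3. All cultured Controls were above all freshly isolated ones for both genes. For Rab3d the log2 fold change was 4.10 ± 0.17 in Protocol 1 over 3 and 3.31 ± 0.19 in Protocol 2 over 3, and for Rab19 it was 3.52 ± 0.23 in Protocol 1 over 3 and 3.71 ± 0.24 in Protocol 2 over 3 (SE). Rab29, which recruits LRRK2 to Golgi and lysosomal membranes, and Rab13, a Rab of tight junctions, followed among members with at least 5 CPM. Rab29 had 22.7, 26.9 and 34.96 CPM (lowest, median and highest) in the 9 Control libraries of Protocol 1, 25.97, 26.3 and 25.3 CPM in those of Protocol 2 and 2.97, 3.33 and 3.70 CPM in those of Protocol 3. Rab13 had 5.12, 6.26 and 7.93 CPM (lowest, median and highest) in the 9 Control libraries of Protocol 1, 8.47, 6.16 and 7.45 CPM in those of Protocol 2 and 1.07, 1.30 and 1.19 CPM in those of Protocol 3. Both stood lowest in Protocol 3. The log2 fold changes were 2.97 ± 0.10 in Protocol 1 over 3 and 2.86 ± 0.11 in Protocol 2 over 3 for Rab29, and 2.36 ± 0.20 in Protocol 1 over 3 and 2.54 ± 0.22 in Protocol 2 over 3 for Rab13 (SE).

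Rab1b and Rab23 came next among members with at least 5 CPM. Rab1b had 155, 191 and 213 CPM (lowest, median and highest) in the 9 Control libraries of Protocol 1, 161, 143 and 167 CPM in those of Protocol 2 and 55.1, 53.7 and 46.8 CPM in those of Protocol 3. Rab23 had 4.59, 6.25 and 9.65 CPM (lowest, median and highest) in the 9 Control libraries of Protocol 1, 7.28, 8.50 and 8.39 CPM in those of Protocol 2 and 2.25, 1.69 and 1.53 CPM in those of Protocol 3. For both, each cultured Control library exceeded the 3 of Protocol 3. Rab1b was higher by 1.84 ± 0.08 in Protocol 1 over 3 and 1.51 ± 0.09 in Protocol 2 over 3 (log2, SE). Rab23, an inhibitor of hedgehog signalling, was higher by 2.06 ± 0.21 in Protocol 2 over 3. Rab1a, at -0.87 ± 0.06 in Protocol 1 over 3, was lower where Rab1b was higher. Rab1a made up 48.4% of the CPM per kilobase of the pair in Protocol 2 Control and 42.04% in Protocol 1A Control, against 82.9% in Protocol 3 Control.

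Among members with at least 5 CPM, Rab15 and Rab20 were furthest below Protocol 3 in the cultured Controls. Rab15, a Rab of recycling endosomes that is abundant in neurons, had the largest difference of all members. Rab15 had 0.950, 3.23 and 5.46 CPM (lowest, median and highest) in the 9 Control libraries of Protocol 1, 2.57, 1.15 and 1.58 CPM in those of Protocol 2 and 60.2, 57.02 and 52.1 CPM in those of Protocol 3. The 11 neuronal markers summed to 0.823 to 14.1 CPM in Protocol 1 Controls and 8.67 to 24.5 CPM in Protocol 2 Control, against 3.19 to 6.96 CPM in Protocol 3 Control. Rab20 had 10.6, 15.3 and 16.8 CPM (lowest, median and highest) in the 9 Control libraries of Protocol 1, 22.4, 23.5 and 24.7 CPM in those of Protocol 2 and 94.01, 98.1 and 100.8 CPM in those of Protocol 3. Rab20 in Protocol 3 Control was above every cultured Control. The log2 fold changes were -4.49 ± 0.20 in Protocol 1 over 3 and -5.07 ± 0.32 in Protocol 2 over 3 for Rab15, and -2.83 ± 0.06 in Protocol 1 over 3 and -2.14 ± 0.08 in Protocol 2 over 3 for Rab20 (SE).

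Rab3ip, Rab40c and Rab12 were lower in the cultured Controls than in Protocol 3 by smaller amounts. Rab3ip had 4.55, 5.72 and 7.01 CPM (lowest, median and highest) in the 9 Control libraries of Protocol 1, 7.09, 6.97 and 7.13 CPM in those of Protocol 2 and 13.9, 14.01 and 11.7 CPM in those of Protocol 3. Rab40c had 23.9, 31.2 and 45.1 CPM (lowest, median and highest) in the 9 Control libraries of Protocol 1, 30.9, 37.1 and 37.6 CPM in those of Protocol 2 and 72.3, 63.2 and 76.9 CPM in those of Protocol 3. Rab12 had 37.8, 55.97 and 63.9 CPM (lowest, median and highest) in the 9 Control libraries of Protocol 1, 54.9, 59.2 and 61.03 CPM in those of Protocol 2 and 116, 117 and 88.1 CPM in those of Protocol 3. Protocol 3 was highest for each of these 3 members, with no overlap with the cultured Controls. Log2 fold changes were -1.28 ± 0.12 in Protocol 1 over 3 and -0.99 ± 0.15 in Protocol 2 over 3 for Rab3ip, -1.18 ± 0.08 in Protocol 1 over 3 and -1.09 ± 0.10 in Protocol 2 over 3 for Rab40c and -1.06 ± 0.08 in Protocol 1 over 3 and -0.96 ± 0.10 in Protocol 2 over 3 for Rab12 (SE). Rab6b had 3.29, 9.33 and 12.3 CPM (lowest, median and highest) in the 9 Control libraries of Protocol 1, 14.96, 15.4 and 16.1 CPM in those of Protocol 2 and 16.7, 15.8 and 17.1 CPM in those of Protocol 3. Rab6b, a Golgi Rab enriched in neurons, was lower in Protocol 1 than in either adult protocol, at -1.09 ± 0.12 in Protocol 1 over 3 and -0.91 ± 0.12 in Protocol 1 over 2 (SE). Among members under 5 CPM in every group mean, Rab30 and Rab44 were lower in both cultured protocols, at -2.93 ± 0.63 and -2.54 ± 0.46 in Protocol 1 over 3 and -2.40 ± 0.83 and -3.96 ± 0.66 in Protocol 2 over 3, and Rab42 was higher, at 2.46 ± 0.82 and 2.44 ± 0.92 (log2, SE). Rab42 had 1, 1 and 2 counts in the Control libraries of Protocol 3, so its fold is imprecise.

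**Figure D5:**
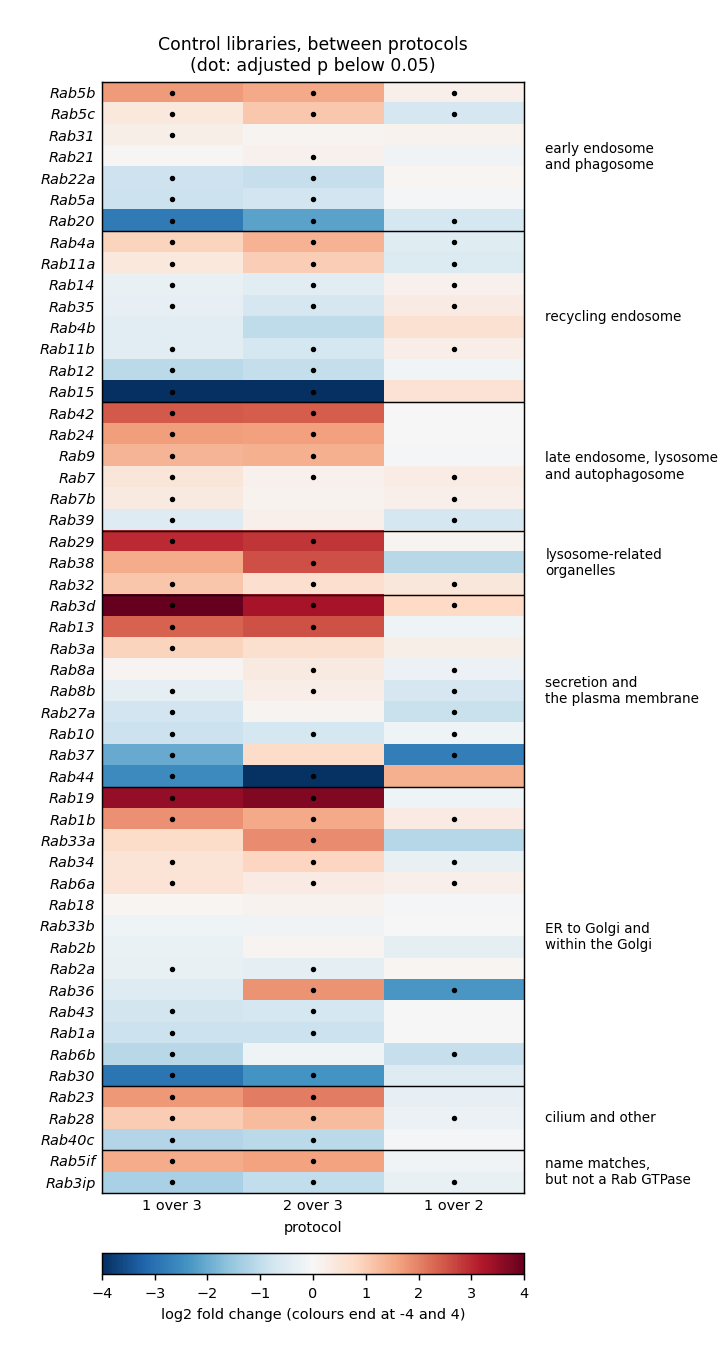
Log2 fold change between Control libraries for each member tested, in columns for Protocol 1 over 3, 2 over 3 and 1 over 2 and in rows by compartment, with a dot where the adjusted p was under 0.05. The first 2 columns carry 43 and 41 dots and the third 25.

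The cultured Controls differed less from each other. In Protocol 1 against Protocol 2, 10 members were higher and 15 lower of 52, or 48.1%, beside 55.3% of all genes (24.6% higher, 30.7% lower), and 2 of these 25 passed a log2 fold change of 1, Rab37 (-2.76 ± 0.41) and Rab36 (-2.32 ± 0.44), which had at most 2.29 and 1.85 CPM in any group mean. Rab3d (0.79 ± 0.12), Rab32 (0.44 ± 0.08), Rab35 (0.34 ± 0.05), Rab1b (0.33 ± 0.07) and Rab7 (0.31 ± 0.06) led the members that were higher in Protocol 1, and Rab6b, Rab27a (-0.88 ± 0.16), Rab39 (-0.70 ± 0.15), Rab20 (-0.70 ± 0.06) and Rab8b (-0.67 ± 0.07) those that were lower with at least 5 CPM (log2 fold change, SE). Rab32 had 68.2, 88.9 and 99.96 CPM (lowest, median and highest) in the 9 Control libraries of Protocol 1, and 55.2, 67.2 and 68.3 CPM in those of Protocol 2. Rab35 had 83.6, 88.8 and 91.8 CPM (lowest, median and highest) in the 9 Control libraries of Protocol 1, and 65.97, 71.8 and 75.1 CPM in those of Protocol 2. Rab7 had 442, 511 and 559 CPM (lowest, median and highest) in the 9 Control libraries of Protocol 1, and 407, 412 and 429.8 CPM in those of Protocol 2. Of these, Rab35 and Rab7 did not overlap between Protocols 1 and 2, while Rab32 did. Rab27a had 4.13, 5.42 and 9.74 CPM (lowest, median and highest) in the 9 Control libraries of Protocol 1, and 9.22, 11.9 and 10.3 CPM in those of Protocol 2. Rab39 had 2.86, 3.58 and 4.51 CPM (lowest, median and highest) in the 9 Control libraries of Protocol 1, and 5.45, 6.39 and 6.26 CPM in those of Protocol 2. Rab8b had 300.3, 329 and 396 CPM (lowest, median and highest) in the 9 Control libraries of Protocol 1, and 477, 558 and 599 CPM in those of Protocol 2. For Rab39 and Rab8b every Protocol 1 library was under the Protocol 2 libraries, and for Rab27a the ranges overlapped. With 1A alone as Protocol 1 the difference of Rab27a was -0.47 (adjusted p = 0.0517) and its call was lost. The 9 fibroblast and mural markers summed to 3.25 to 96.6 CPM in Protocol 1 Controls, against 195 to 308 CPM in Protocol 2 Control, and their part was not tested.

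Within Protocol 1, leaving out GM-CSF (1B) went with 16 members higher and 4 lower than in 1A, or 38.5%, beside 30.8% of all genes (18.2% higher, 12.6% lower). When only these 6 libraries were fitted, 15 members were higher and 9 lower. All genes then had 2585 higher and 2556 lower, against 3107 and 2140 in the main fit. Culture for 21 days (1C) went with 8 higher and 7 lower than in 1A, or 28.8%, beside 21% (13.1% higher, 7.91% lower). Markers of other cells differed too. In 1B over 1A, 6 of 8 astrocyte markers were higher and 2 lower (median log2 fold change 3.34), 6 of 10 oligodendrocyte markers higher and 1 lower (3.77), 5 of 6 neuronal markers tested higher (3.36) and 4 of 8 fibroblast and mural markers tested higher (4.32). In 1C over 1A, 5 of 8 astrocyte markers were higher and 2 lower (3.38), 9 of 10 oligodendrocyte markers higher (4.53), 3 of 6 neuronal markers higher (2.49) and 4 of 8 fibroblast and mural markers higher (4.97). Summed, the 8 astrocyte markers were at 30.8 to 56.5 CPM in 1B and 43.7 to 56.3 CPM in 1C, against 81.5 to 90.2 CPM in 1A, and the 10 oligodendrocyte markers at 129 to 135 CPM in 1B and 179.9 to 251 CPM in 1C, against 127 to 140.2 CPM in 1A. The 10 neutrophil markers summed to 2.31 to 4.38 CPM in 1B and 13.6 to 29.2 CPM in 1C, against 43.1 to 61.1 CPM in 1A. The 10 endothelial markers summed to 91.3 to 104 CPM in 1B and 109 to 134 CPM in 1C, against 151 to 180 CPM in 1A. The part of any of these in the differences was not tested. Rab6b was at 9.33, 11.8 and 12.04 CPM in 1B and 8.64, 12.3 and 11.5 in 1C, against 4.42, 5.16 and 3.29 in 1A. Rab34, a Rab of cilia and macropinocytosis, was at 34.9, 30.7 and 28.6 CPM in 1B and 14.8, 19.9 and 25.2 in 1C, against 14.1, 12.5 and 13.8 in 1A. Both were higher in 1B and 1C than in 1A, Rab6b by 1.40 ± 0.16 and 1.35 ± 0.16 and Rab34 by 1.26 ± 0.14 and 0.59 ± 0.14 (log2, SE). Rab31 was at 334, 302 and 291 CPM in 1B, against 174, 164 and 159 in 1A, a difference of 0.93 ± 0.08. Rab12 was at 63.8, 53.3 and 61.6 CPM in 1C, against 41.3, 37.8 and 45.9 in 1A, a difference of 0.53 ± 0.10.

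Rab19 was at 5.84, 6.65 and 5.84 CPM in 1B and 8.43, 7.42 and 9.67 in 1C, against 15.1, 15.6 and 16.2 in 1A. Among members with at least 5 CPM it was the most lowered in both comparisons, with differences of -1.32 ± 0.19 and -0.86 ± 0.18 on the log2 scale (SE). In 1B, Rab32 (76.8, 69.5 and 68.2 CPM, against 97.5, 95.3 and 99.96 in 1A) and Rab8a (93.04, 87.7 and 93.3 CPM, against 109, 114 and 138) were lower, with differences of -0.41 ± 0.09 and -0.36 ± 0.08. In 1C, Rab27a (4.64, 4.20 and 4.13 CPM, against 6.80, 5.94 and 9.74 in 1A) and Rab3d (36.9, 32.7 and 30.2 CPM, against 47.8, 50.4 and 56.9) were lower, with differences of -0.78 ± 0.21 and -0.62 ± 0.14. Of the members with group means under 5 CPM, Rab44 was lower in 1B (-4.97 ± 0.79, on 1, 0 and 4 counts in 1B), and Rab15 (-1.96 ± 0.37) and Rab37 (-2.13 ± 0.68) in 1C (log2, SE). The call of Rab27a in 1C was lost without Control replicate 3 of 1A (adjusted p = 0.0854), and that of Rab34 in 1C without Control replicate 3 of 1C (adjusted p = 0.0547).

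The genes that switch Rabs on and off were counted from lists of known regulators. GAPs, which end Rab signalling, mostly fell with HMGB1 in neonatal microglia. Of 35 GAP genes, 34 were tested in 1A (6 rose, 18 fell), 33 in 1B (7 rose, 22 fell) and 34 in 1C (5 rose, 25 fell), with medians of -0.48, -0.57 and -0.53 (log2) against -0.04, -0.02 and -0.04 over all genes, of which 31.6%, 32% and 31.8% fell. Tbc1d2, a GAP of Rab7, had log2 fold changes of -2.24 ± 0.08, -3.23 ± 0.09 and -3.46 ± 0.15 (SE) in 1A, 1B and 1C, and Tbc1d16, a GAP of Rab4, -2.02 ± 0.09, -2.72 ± 0.09 and -2.85 ± 0.13. Tbc1d13, a GAP of Rab35, rose by 1.35 ± 0.08, 1.52 ± 0.08 and 2.02 ± 0.10. In Protocol 2 Tbc1d2b alone was called (0.37 ± 0.07), and in Protocol 3 none was.

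Of the GEFs, 12 were higher and 12 lower among 31 tested in 1A, 9 higher and 11 lower among 30 in 1B, and 10 higher and 13 lower among 31 in 1C. Over all genes tested, 29.7%, 29.8% and 28.4% were higher and 31.6%, 32% and 31.8% lower in 1A, 1B and 1C, against 38.7%, 30% and 32.3% of the GEFs higher and 38.7%, 36.7% and 41.9% lower. Rab3il1, a relative of Rabin8, had log2 fold changes of -2.84 ± 0.10, -3.65 ± 0.13 and -4.12 ± 0.09 (SE) in 1A, 1B and 1C, opposite to those of Rab3ip, and Dennd2c had -2.51 ± 0.17, -3.25 ± 0.18 and -3.64 ± 0.23. Of the Rab effectors, 10 rose and 13 fell among 30 in 1A, 10 rose and 14 fell among 30 in 1B, and 8 rose and 16 fell among 33 in 1C, which is 33.3%, 33.3% and 24.2% higher and 43.3%, 46.7% and 48.5% lower. Rab11fip1, which links Rab11 to recycling endosomes, rose by 3.17 ± 0.09, 3.34 ± 0.13 and 3.48 ± 0.13, and in Protocol 2 by 1.03 ± 0.21. Mical1, an actin-oxidising effector, had -2.34 ± 0.08, -3.29 ± 0.13 and -2.52 ± 0.12. Of the 9 HOPS and CORVET tether subunits, which bind Rab5 and Rab7 to fuse endosomes and lysosomes, 1 rose and 4 fell in 1A, and 7 fell in each of 1B and 1C, which is 44.4%, 77.8% and 77.8% lower. Vps18, shared by both tethers, had -0.91 ± 0.08, -1.13 ± 0.10 and -1.15 ± 0.09. Of 7 GDI, escort and prenylation genes, 1 rose and 1 fell in 1A, 1 rose and 2 fell in 1B, and 1 rose and 3 fell in 1C, at most 42.9% of those tested in either direction.

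Lrrk2, whose kinase phosphorylates Rab8a, Rab10, Rab12 and others, differed between the neonatal cultures. In Protocol 1A Lrrk2 had 90.2, 97.7 and 108 CPM in HMGB1 libraries, against 20.4, 19.9 and 25.4 in Control. In 1C it had 55.9, 64.2 and 41.6 CPM in HMGB1 libraries, against 18.2, 10.4 and 9.999 in Control. In 1B, without GM-CSF, it had 3.50, 4.57 and 5.03 CPM in HMGB1 libraries, against 5.75, 4.95 and 5.54 in Control. The groups were apart in 1A and 1C, where Lrrk2 rose by 2.15 ± 0.10 and 2.08 ± 0.27 (log2, SE), and it was not called in 1B (-0.29 ± 0.19, adjusted p = 0.206). The response of Lrrk2 in 1B was lower than in 1A by a log2 difference of -2.46 ± 0.35 (adjusted p = 5.54e-05), and so was that of Rab32 (-1.0 ± 0.14, adjusted p = 8.15e-06). The differences of 1B minus 1A were -0.28 ± 0.11 for Rab10 and 0.04 ± 0.13 for Rab12, neither called, and with the replicate block that of Rab10 was called (-0.28 ± 0.08, adjusted p = 0.0253). Lrrk1, the second LRRK kinase, had log2 fold changes of -0.90 ± 0.11, -0.68 ± 0.08 and -0.56 ± 0.09 (SE) in 1A, 1B and 1C. In Protocol 2 the regulators called were Tbc1d2b, the GEF gene Madd (0.46 ± 0.07) and the effectors Rab11fip1 and Rilpl2 (0.26 ± 0.06), and in Protocol 3 none of any list was called.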

How the data were processed

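Bulk mRNA libraries were prepared from 3 samples in each of 10 groups, 1 HMGB1 and 1 Control group for each of 5 isolation protocols. The deposited table held whole-number counts per gene, which the authors obtained with featureCounts 1.5.0-p3 after alignment (HISAT2 2.0.5 per the submitters' processing notes). The genome build and the strand setting are not given in the sources used here. Of 54409 genes shared with GENCODE M21 (GRCm38), 98.3% had the same position, as did 59 of the 61 members. No 2 libraries held identical values.

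Counts were tested with edgeR 4.0.16 (quasi-likelihood fit, robust, with limma 3.58.1 and statmod 1.5.0 in R 4.3.3) after filterByExpr and TMM scaling, with Benjamini-Hochberg adjustment over all genes tested. The HMGB1 responses were fitted on the 6 libraries of a protocol, Controls on all 15 Control libraries and differences between responses on all 30. SE was derived from the F statistic. Values per kilobase used the deposited gene length column. The members were all protein-coding genes of the given spelling. Named in each library were members called one way in 1A, 1B and 1C with at least 5 CPM (up to 8 rises and 8 falls), those called in Protocol 2 or 3, and the most changed between Controls. Members and regulator lists were chosen with earlier results of these data known. Alternatives were DESeq2 1.42.0, its size factors, no filter, a log2 fold change of at least 1, a replicate block, other sets of libraries in the fit and each library left out. The fits were tested on simulated data.

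The residuals of same-numbered HMGB1 and Control libraries correlated at 0.131 to 0.517 in Protocols 1B, 1C, 2 and 3, and at 0.0700 to 0.132 in 1A. In every protocol, 1A included, each HMGB1 library correlated best with the Control library of its own number. The main tests did not use this pairing, and the replicate block did. The labels give only the numbers, so any pairing is read from the data.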

Additional observations from a re-analysis of the deposited data

Results flagged for a closer look

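Each value here is the log2 HMGB1 response in 1 protocol minus that in Protocol 1A, from edgeR's quasi-likelihood test of that difference over 30 libraries. All of them passed an adjusted p below 0.05. Without GM-CSF (1B minus 1A) the differences were 0.72 for Rab43, -1.0 for Rab32, -0.83 for Rab40c and -0.61 for Rab7b (adjusted p = 8.15e-06 to 0.0359). Rab32 had the smaller rise in 1B, and Rab40c and Rab7b had the larger falls in 1B.

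After the longer culture (1C minus 1A) the response was more positive in 1C by 1.49 for Rab19, 1.45 for Rab43, 0.97 for Rab39, 0.72 for Rab9, 0.57 for Rab29 and 0.51 for Rab21 (adjusted p = 1.27e-05 to 0.0301). It was more negative in 1C, with differences of -0.66 for Rab7b, -0.58 for Rab40c and -0.49 for Rab6a (adjusted p = 0.0048 to 0.032). Rab3b had a fitted difference of 6.79 (adjusted p = 0.0178), which is not a fold to be read as a size. It had 0 counts in each HMGB1 library of 1A and 15, 5 and 10 counts in those of 1C, against 10, 3 and 6 counts in the Control libraries of 1A and 5, 3 and 6 counts in those of 1C.

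For members named as risers in 1A, 1B and 1C, the M-CSF and GM-CSF culture of adult cells (Protocol 2 minus 1A) had smaller responses, with differences of -2.11 for Rab3ip, -1.98 for Rab20, -1.49 for Rab32, -1.49 for Rab12, -1.19 for Rab10, -1.03 for Rab21, -0.96 for Rab5a and -0.87 for Rab5if (adjusted p = 1.23e-14 to 6.53e-07). For members named as fallers the differences were 2.08 for Rab7b, 1.85 for Rab27a, 0.97 for Rab40c, 0.90 for Rab31 and 0.61 for Rab3d (adjusted p = 9.66e-12 to 0.0049), so the response was less negative than in 1A.

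For members named as risers in 1A, 1B and 1C, the freshly isolated adult cells of Protocol 3 (Protocol 3 minus 1A) had smaller responses, with differences of -2.70 for Rab20, -2.12 for Rab3ip, -1.64 for Rab12, -1.60 for Rab32, -1.48 for Rab10, -1.18 for Rab21, -1.06 for Rab5if and -0.91 for Rab5a (adjusted p = 3.3e-18 to 4.49e-08). For members named as fallers the differences were 2.18 for Rab7b, 1.99 for Rab27a, 1.04 for Rab40c, 0.90 for Rab31 and 0.72 for Rab3d (adjusted p = 2.86e-12 to 0.0158), so the response was less negative than in 1A. Protocols 2 and 3 differ from 1A in the age of the mice and in the whole isolation procedure, which cannot be told apart.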

How the results depend on the processing

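With an absolute log2 fold change of at least 1 the members called were 13, 11 and 17 in Protocols 1A, 1B and 1C and 0 in Protocol 2. In Controls they were 22 (Protocol 1 against 3), 22 (2 against 3), 2 (1 against 2), 4 (1B against 1A) and 3 (1C against 1A), and for the differences of responses from 1A they were 1 (1B), 3 (1C), 11 (Protocol 2) and 14 (Protocol 3). The share of all genes at this fold change minimum was not counted, so these counts do not set members apart from other genes. With the replicate block the counts were 8 in Protocol 2, 2 in Protocol 3, 10 for 1B minus 1A and 16 for 1C minus 1A. The block moved no other count of members by more than 1.5 times, with 34, 36 and 35 in Protocols 1A, 1B and 1C. Without a filter on low counts Protocol 2 had 6 members, beside 365 higher and 165 lower of all genes. With all 30 libraries in one fit it had 1, beside 205 higher and 20 lower of all genes. DESeq2's Wald test gave 7 for 1B minus 1A, beside 993 higher and 685 lower of all genes. Leaving out 1 library at a time gave 30 to 36 members in 1A, 33 to 34 in 1B, 33 to 36 in 1C, 1 to 3 in Protocol 2 and 0 to 0 in Protocol 3. The same gave 42 to 45 in Controls of Protocol 1 against 3, 35 to 44 of 2 against 3, 19 to 26 of 1 against 2, 17 to 24 of 1B against 1A and 13 to 16 of 1C against 1A. For differences of responses from 1A it gave 2 to 6 (1B), 7 to 12 (1C), 27 to 32 (Protocol 2) and 29 to 33 (Protocol 3). The value of 2 for 1B arose without HMGB1 replicate 3 of 1A or HMGB1 replicate 2 of 1B. Over all alternatives, 1372 values of named members kept their direction and their side of the threshold, 58 kept their direction but lost the call, most of them under the fold change minimum, and none reversed. The named members had all been called in the main fit and ranked by size of change. Keeping the call was therefore likely and gaining one was not possible. The cause of these changes was not tested, beyond the smaller number of libraries in the fits with 1 left out. In Protocol 1A Rab14 was lost with DESeq2's Wald test (adjusted p = 0.146), without a filter (0.102), with the block (0.0537) and with 1 fit of all libraries (0.105). In 1C it was lost with DESeq2's size factors (0.0522) and without HMGB1 replicate 2 (0.0928). Members near or under 5 CPM, such as Rab27a, Rab39 and Rab3b, rest on few counts, and with 3 libraries a group small differences could not be told from the spread between libraries.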
